A study of Mus musculus with 4 samples.

Results

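The nuclear-encoded respiratory chain genes described here are the gene features whose symbol is Nduf followed by a, b, c, s or v and a digit, or begins with Uqcr, Cox4, Cox5, Cox6, Cox7, Cox8 or Atp5. The rule found 81 of the 32285 gene features listed in each matrix: 38 Nduf, 8 Uqcr, 18 Cox and 17 Atp5 genes. Of these, 75 had 50 or more UMIs over both libraries at 1 day and 76 at 1 week, and every ratio below is over those genes. Each UMI, or unique molecular identifier, stands for a single captured RNA molecule. The study profiled single epidermal cells of adult mouse skin after deletion of ΔNp63, the p63 isoform made from an internal promoter of Trp63. Control mice were DNp63fl/fl and experimental mice were DNp63fl/fl;K14-CreT2, in which a tamoxifen-dependent Cre recombinase is driven by the keratin 14 promoter of basal keratinocytes. Both genotypes received tamoxifen by oral gavage at 200 mg/kg daily for 5 days, so the controls had the drug and the floxed alleles but no Cre. Cells were taken 1 day or 1 week after ablation from mice of 2 to 17 months and both sexes in equal shares, after 0.25% trypsin at 4 °C overnight or at 37 °C for 2 hours. Which age, sex or digestion went into which library, and how many mice were pooled, is not given in the labels.

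There were 4 libraries, 1 per group, so nothing was tested and no value below carries a replicate error. Library chemistry changed with time: the 3′ kit of 10x Genomics, version 3.1, was used at 1 day and its 5′ kit, version 1.1, at 1 week, so ratios were taken within a time point only. Kept barcodes numbered 23047 (control) and 23741 (experimental) at 1 day and 19915 and 15639 at 1 week, with 117397625, 98329172, 72300062 and 58347771 UMIs. The lowest listed UMI count per barcode was 500 in both control libraries but 1368 and 1059 in the experimental ones. The 1-day pair shared 299 barcode sequences, the 1-week pair shared 661, and pairs across time points shared 9 to 18. Trp63, counted without telling its isoforms apart, had 392 CPM (the gene's UMIs scaled to a common library total) in the control and 114 in the experimental library after 1 day, and after 1 week 428 and 142 CPM. Keratin 14 gave 0.362% to 0.893% of the UMIs of each library, and keratin 10, the suprabasal keratin, 0.204% to 0.713%, so the labelled epidermis was present in all 4.

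The respiratory chain passes electrons from NADH through complex I, complex III and complex IV to oxygen and pumps protons across the inner mitochondrial membrane, and ATP synthase uses the gradient to make ATP. Most subunits are encoded in the nucleus and imported, and a small set of central subunits is encoded by mitochondrial DNA. In skin, basal keratinocytes divide and their daughters cornify and lose their mitochondria as they reach the surface, while sebocytes of the sebaceous gland make lipid and burst. The transcription factors NRF1, GABPA and YY1 are textbook regulators of the nuclear subunit genes.

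Promoters of 4 members are shown because the ratios below turn on them: Ndufa4, which had the highest ratio to control among members of 500 or more UMIs at both times; Uqcrc1, the lowest at 1 day; Atp5b, the highest ATP synthase gene at 1 week; and Atp5k, which lay on opposite sides of its control at the 2 time points. Each line runs 5′ to 3′ from 120 bases before to 30 bases after the RefSeq start on build GRCm38.p6, and capitals mark a match to 1 of the 3 core motifs searched.
Ndufa4, chr6:11907421-11907570, reverse strand: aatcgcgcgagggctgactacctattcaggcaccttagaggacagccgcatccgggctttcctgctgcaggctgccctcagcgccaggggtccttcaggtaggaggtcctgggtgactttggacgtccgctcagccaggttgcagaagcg
Uqcrc1, chr9:108936528-108936677, forward strand: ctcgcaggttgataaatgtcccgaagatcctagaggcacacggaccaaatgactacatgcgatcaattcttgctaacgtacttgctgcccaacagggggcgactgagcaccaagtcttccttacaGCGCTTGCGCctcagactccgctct
Atp5b, chr10:128083187-128083336, forward strand: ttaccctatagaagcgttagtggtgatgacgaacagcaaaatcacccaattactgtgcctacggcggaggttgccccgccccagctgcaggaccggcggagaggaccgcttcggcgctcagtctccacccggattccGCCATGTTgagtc
Atp5k, chr5:108434370-108434519, reverse strand: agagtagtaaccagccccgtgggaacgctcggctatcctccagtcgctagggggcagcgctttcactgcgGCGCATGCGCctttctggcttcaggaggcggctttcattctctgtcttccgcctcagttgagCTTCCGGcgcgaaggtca
The motifs, searched on both strands with overlaps allowed, were GCGCANGCGC for NRF1, CCGGAAG for GABPA and AANATGGC for YY1. The Uqcrc1 window holds 1 NRF1 match, the Atp5b window 1 YY1 match and the Atp5k window 1 NRF1 and 1 GABPA match, while none of these letters is in the Ndufa4 window. RefSeq promoters of 300 bases (250 before and 50 after the start) were found for 64 of the 81 members, 69 promoters in all. An NRF1 match was in 23.2% of them against 4.60% of all 32851 promoters of the table. A GABPA match was in 21.7% against 8.86%, and a YY1 match in 23.2% against 6.05%. Any of the 3 was in 59.4% of the members' promoters against 17.4% of all. The share was lowest for the Cox genes (30.8% of 13 promoters) and highest for the Atp5 genes (70.6% of 17 promoters, which belong to 14 genes). Promoters of mitochondrial and of cytosolic ribosomal protein genes held any of the 3 in 62.7% each, and a GABPA match in 34.7% and 36%. Members with a GABPA match had a median log2 ratio of 0.13 at 1 day (15 genes) and members without one -0.04 (46 genes), and at 1 week the medians were -0.06 and -0.02. For NRF1 the 1-day medians with and without a match were -0.04 and -0.0026, for YY1 -0.05 and -0.0059, and for any motif -0.0087 and -0.0028. The 1-week medians were -0.04 and -0.03 for NRF1, 0.03 and -0.06 for YY1, and -0.02 and -0.09 for any motif. Coding length, which goes with the ratios as described below, was not matched between members with and without a motif. Motif and length are therefore not told apart here. These matches describe letters in a window and say nothing about binding.

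Taken as a sum, the nuclear members gave nearly the same share of all UMIs in control and experimental libraries. At 1 day they made up 1.70% of the UMIs of the control library and 1.72% of those of the experimental library. At 1 week the shares were 1.66% and 1.74%. The log2 ratio of the sums, experimental over control, was 0.01 at 1 day and 0.07 (0.06 to 0.07) at 1 week. Intervals in brackets here and below are exact 95% limits that cover counting error only, and of paired values the control stands first. Over single genes the median log2 ratio of the members was -0.01 at 1 day, beside -0.05 over all 14026 genes of 50 or more UMIs. At 1 week it was 0.02, beside 0.09 over 14555 genes. The sign of these medians depends on the scaling. Dividing by totals without mitochondrial and cytosolic ribosomal protein genes moved every log2 ratio by -0.11 at 1 day and by -0.09 at 1 week, and the members' medians became -0.12 and -0.07. With the TMM factor of edgeR they were 0.01 and -0.07. Summed cell type markers differed as well. The 8 basal keratinocyte markers gave 1.08% and 0.650% of UMIs at 1 day and 1.95% and 1.57% at 1 week. Of these, keratin 5 was lower at 1 week (0.639% and 0.398%) but keratin 14 was higher (0.659% and 0.893%), while both were lower at 1 day. The 13 hair follicle markers gave 0.778% and 0.759%, then 0.711% and 1.65%. No marker of either list was at 0. A marker sum does not tell fewer cells from less marker RNA per cell. The part of cell makeup in the library-wide ratios was not tested, and ratios within clusters are given further on.

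Few single members lay past 1.2-fold from their control at 1 day and most did at 1 week, but the kit also changed between these times. At 1 day 31 of 75 were higher and 44 lower in the experimental library (44.3% and 55.7% of all genes). With totals that leave out mitochondrial and cytosolic ribosomal protein genes, 19 were higher. Only 3 members were 1.2-fold or more higher and 4 were that much lower, 4% and 5.33% of the members, where all genes gave 20.4% and 26.7%. The 3 were Ndufa4, Cox7a2 and Atp5k, and the 4 include Uqcrc1, Cox6b2 and Cox7a2l. Past 1.5-fold there was 1 member higher, Ndufa4, and 0 lower, with 9.67% and 9.5% of all genes. With the reduced totals Ndufa4 falls under 1.5-fold and Uqcrc1 passes it on the lower side. Those totals also put Cox7a2 and Atp5k under 1.2-fold, and Ndufb10 and Ndufv1 are among further members then past it on the lower side. All genes include scarce ones, while the lowest 1-day members were Cox6b2 (550 and 352 UMIs) and Ndufs1 (3795 and 3152 UMIs). Members and all genes were not matched for UMI count at either time, so their shares do not show whether members were unusually stable. At 1 week 39 of 76 were higher and 37 lower (57.8% and 42.2% of all genes). There 25 members were 1.2-fold or more higher and 25 were lower, 32.9% each, against 36.5% and 22.6% of all genes. The lower and upper quartiles of the 1-week log2 ratio were -0.38 and 0.34 over members and -0.22 and 0.45 over all genes. The members' 1-week spread was thus near that of all genes. Past 1.5-fold 3 were higher (Ndufa4, Atp5b and the scarce isoform Cox4i2) and 9 lower, 3.95% and 11.8% of the members, with 18.9% and 10.1% of all genes. Under both other scalings, which move every 1-week ratio by -0.09, Atp5b falls under 1.5-fold. Atp5l then passes it on the lower side.

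**Figure D1:**
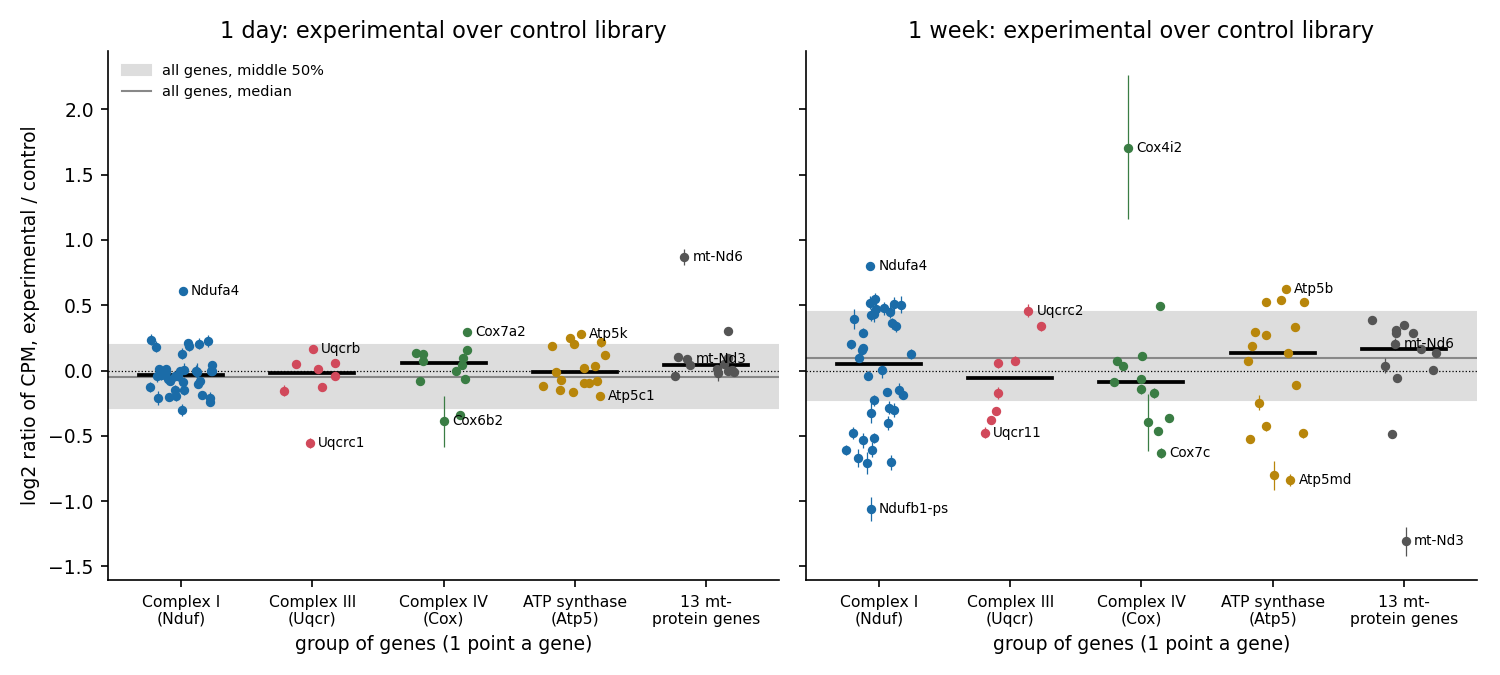
Log2 ratio of CPM, experimental over control library, for each member and for the 13 mitochondrially encoded protein genes, by group, at 1 day (left) and 1 week (right). Points are genes with exact 95% counting limits, black bars are group medians, and the grey band and line give the middle 50% and the median of all genes. Members lie between -0.55 and 0.61 at 1 day and, apart from Cox4i2 at 1.70, between -1.06 and 0.80 at 1 week.

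The members separated by the length of the protein they encode, and did so in opposite senses at the 2 time points, which also differ in kit (3′ and 5′), so time and kit cannot be told apart. At 1 day the 26 members of at most 106 codons had a median log2 ratio of 0.05, with 19 higher, and the 24 members of 171 codons or more had a median of -0.15, with 3 higher. At 1 week the short members had a median of -0.41, with 3 of 26 higher, and the long members a median of 0.43, with 24 of 25 higher. Members of intermediate length had medians of -0.04 at 1 day and 0.02 at 1 week. The short-minus-long difference was thus 0.20 at 1 day and -0.84 at 1 week, and no scaling can move it. Across the 74 members with a coding length, Spearman's rho between log2 ratio and codons was -0.60 at 1 day, and across 75 it was 0.71 at 1 week. Genes are not replicates, and all points of a time point share the same 2 libraries. Members' ratios at the 2 time points, which share no library, had rho -0.34 over 75 genes, with 47 members on opposite sides of 0 (20 higher then lower, 27 lower then higher). Division of the members by codons was chosen after their ratios were seen.

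Other gene sets give the scale of this contrast. Over all genes the short, intermediate and long classes had medians of 0.02, -0.02 and -0.06 at 1 day and 0.03, 0.14 and 0.10 at 1 week, so the classes lay closer together than within the members. The 13 shortest cytosolic ribosomal protein genes had a median of -1.28 at 1 week and the 31 longest -0.21. At 1 day those medians were -0.25 and -0.41. Mitochondrial ribosomal protein genes had medians of 0.25 (short, 7 genes) and 0.44 (long, 49 genes) at 1 week, and of 0.07 and -0.14 at 1 day. Cytosolic ribosomal protein genes made up 24.3% and 18.7% of UMIs at 1 day and 19.4% and 14.1% at 1 week, in control and experimental order, so their share was lower at both times. Their part in the members' ratios was not tested.

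**Figure D2:**
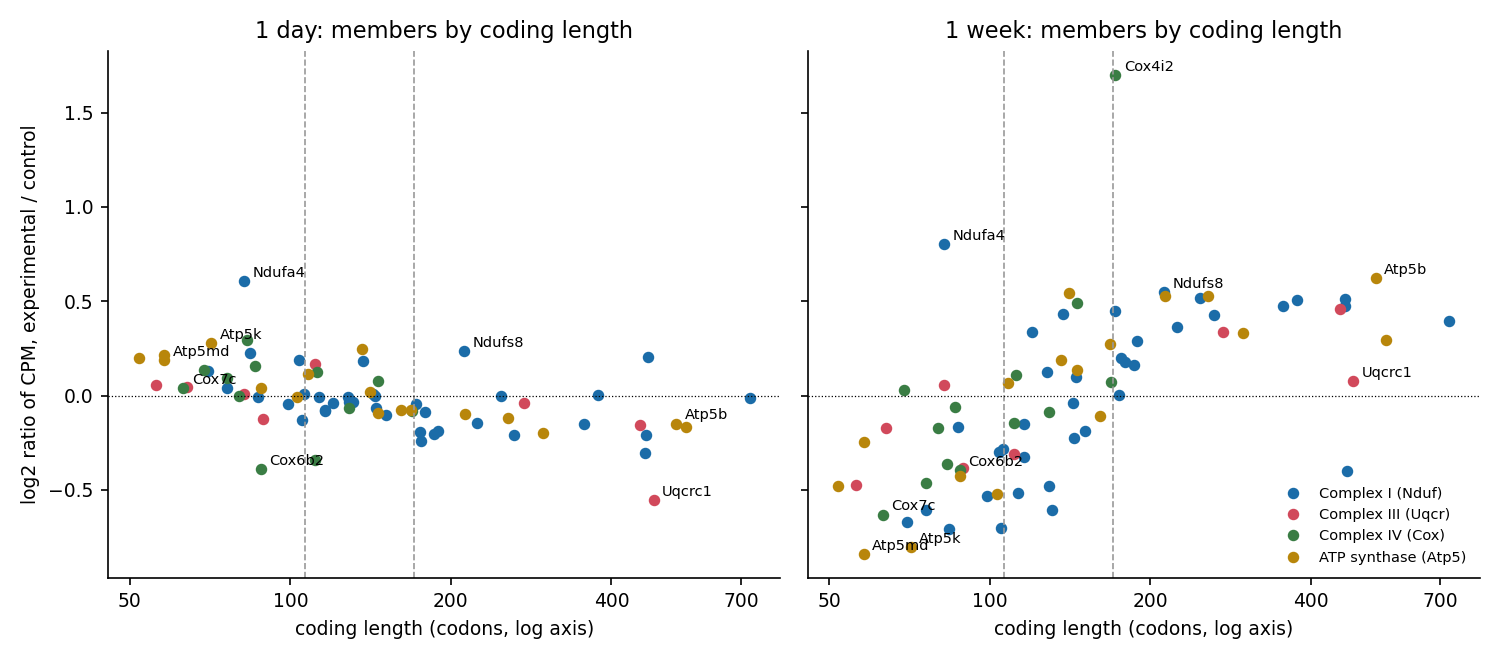
Log2 ratio of CPM, experimental over control, against coding length in codons (log axis) for each member, coloured by complex, at 1 day (left) and 1 week (right). Dashed lines separate members of at most 106 codons, of intermediate length, and of 171 codons or more. The short members sit mostly above 0 at 1 day and below 0 at 1 week, and the long members do the reverse.

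The Nduf genes are the largest of the 4 groups, and most encode subunits of complex I, the NADH dehydrogenase. The 38 genes, Ndufa4 and Ndufa4l2 among them, had a median of -0.04 at 1 day (12 higher, 26 lower) and 0.05 at 1 week (20 higher, 18 lower), and the 1-week median turns negative (-0.04) under both other scalings. The 7 nuclear subunits of its catalytic core, which carry the flavin and most iron-sulphur clusters, were grouped after their values were seen. They had a median of -0.15 at 1 day, with 1 of 7 higher, and of 0.47 at 1 week, with 7 of 7 higher. The other 31 Nduf genes had medians of -0.03 and -0.17. All 7 are long members, and the 16 long Nduf genes together had nearly the same medians (-0.15 and 0.41), so the core cannot be told apart from coding length.

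Ndufs8, an iron-sulphur subunit of the core, was the only core gene higher at both times. Its values were 68.2 against 80.3 CPM at 1 day (0.24, 0.19 to 0.28), then 86.2 against 126 CPM at 1 week (0.55, 0.50 to 0.60). Ndufv1, which binds NADH, had log2 ratios of -0.21 at 1 day and 0.51 at 1 week.

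Small accessory subunits of complex I made up the low end at 1 week. Ndufb1-ps, which the annotation lists as a non-coding gene and which therefore has no coding length here, had 169 against 196 CPM at 1 day (0.21), then 48.4 against 23.2 CPM at 1 week (-1.06, -1.15 to -0.97). Ndufa3 had 63.2 against 74.0 CPM at 1 day (0.23), then 46.9 against 28.7 CPM at 1 week (-0.71). Ndufb2 had 125 against 114 CPM at 1 day (-0.13), then 110 against 67.7 CPM at 1 week (-0.70). All 3 were lower in the 1-week experimental library, but at 1 day Ndufb2 was already slightly lower and the first 2 were higher. Ndufv3, an accessory subunit of the NADH-binding part, was the 1 long member lower at 1 week (-0.40). At 1 day it had a ratio of 0.21, and the other long members above 0 were Ndufs8 (0.24) and Ndufa9 (0.0035). Ndufb10, another accessory subunit, was lower at 1 day (190 against 161 CPM, -0.24) and had a ratio of 0.20 at 1 week.

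Complex III, the cytochrome bc1 complex, had medians of -0.02 at 1 day and -0.06 at 1 week over 8 genes, with 4 higher and 4 lower both times; the 1-day median is 0.01 with the TMM factor. Uqcrc1, core protein 1 of the complex, had 132 CPM (control) against 89.9 CPM (experimental) at 1 day. Its log2 ratio of -0.55 (-0.59 to -0.52) was the lowest of all members. At 1 week the values were 204 against 215 CPM, a ratio of 0.08. The partner core protein Uqcrc2 had 91.2 against 81.9 CPM at 1 day (-0.16), then 87.6 against 120 CPM at 1 week (0.46). Both core proteins are long, and the medians over all long members were -0.15 and 0.43. Among the small subunits, Uqcrb had 306 against 343 CPM at 1 day (0.17), then 268 against 216 CPM at 1 week (-0.31). Uqcr11 had 212 against 221 CPM at 1 day (0.06), then 177 against 128 CPM at 1 week (-0.48).

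Complex IV, cytochrome c oxidase, has nuclear subunits that surround a core made in the mitochondrion, and several of them exist as isoforms. The 12 Cox genes at 1 day had a median of 0.06 (7 higher), which is -0.05 with totals that leave out mitochondrial and ribosomal genes, and the 13 at 1 week had a median of -0.09 (5 higher). Cox7a2 had 345 against 424 CPM at 1 day, a log2 ratio of 0.30 (0.28 to 0.32), and 310 against 241 CPM at 1 week, a ratio of -0.37 (-0.40 to -0.34). Cox7c was the lowest Cox gene at 1 week among those of 500 or more UMIs. It had 444 against 456 CPM at 1 day (0.04), then 206 against 133 CPM at 1 week (-0.63). Cox5a, a longer matrix-facing subunit, had 349 against 368 CPM at 1 day (0.07), then 287 against 403 CPM at 1 week (0.49).

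The isoforms known from other tissues were scarce. Cox4i1, the general form of subunit 4, had 996 against 941 CPM at 1 day (-0.08), then 1001 against 1052 CPM at 1 week (0.07). Cox4i2, its alternative form, had 4 against 19 UMIs at 1 day, then 40 against 105 UMIs at 1 week, a log2 ratio of 1.70 (1.16 to 2.27). Its highest 1-week levels were in the smooth muscle or pericyte-like cluster (77.4 CPM from 7 UMIs and 65.7 CPM from 9 UMIs) and the endothelial-like cluster (35.6 against 41.7 CPM). Summed markers of these cell types moved with it: the 6 smooth muscle or pericyte markers gave 0.00737% and 0.0156% of UMIs and the 6 endothelial markers 0.00320% and 0.00748%, none of them at 0. Their part in the Cox4i2 ratio was not tested. Cox6b2, known from testis, was lower by the same ratio at both times (-0.39), with 550 against 352 UMIs at 1 day, then 456 against 280 at 1 week. Within clusters it was higher in 2 of 4 at 1 day and in 0 of 5 at 1 week. Its highest 1-day level was in the fibroblast-like cluster (120.6 against 27.7 CPM). The summed fibroblast markers gave 0.00266% and 0.00289% of UMIs at 1 day and 0.0499% and 0.0200% at 1 week, and their part in the Cox6b2 ratio was not tested. The other isoforms known from muscle or testis lay under the limit of 50 UMIs. Cox6a2 had 2 against 0 UMIs at 1 day, then 3 against 0 at 1 week, Cox8b 1 and 0, then 3 and 4, and Cox8c 0 and 0, then 1 and 0. Cox7a1 had 15 against 28 UMIs at 1 day, then 11 against 9 at 1 week, and Cox7b2 had 0 in all 4 libraries. The nearest members inside the limit were Cox6b2 at 1 day, and Cox4i2 and then Cox6b2 at 1 week.

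The general isoforms differed in direction. Cox6a1 was higher at both times (0.13 and 0.11), and Cox8a had ratios of 0.14 and 0.03. Cox6b1 had 0.16 and -0.06. Cox7a2l, which takes part in joining complexes III and IV into supercomplexes, was lower in the whole libraries at both times. It had 257 against 203 CPM at 1 day (-0.34, -0.37 to -0.31), then 236 against 213 CPM at 1 week (-0.14, -0.18 to -0.11). Within clusters it was lower in 15 of 20 at 1 day (median -0.14), but in 6 of 13 at 1 week (0.04).

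ATP synthase showed the length contrast most clearly, with rho -0.89 over 17 genes at 1 day and 0.83 at 1 week. Its median was -0.01 at 1 day (0.01 with the TMM factor) and 0.13 at 1 week. Atp5b, the catalytic beta subunit, had 530 against 478 CPM at 1 day, a log2 ratio of -0.15 (-0.17 to -0.13). After 1 week its values were 578 against 889 CPM, a ratio of 0.62 (0.60 to 0.64). The 5 F1 subunits (Atp5a1, Atp5b, Atp5c1, Atp5d and Atp5e) had medians of -0.15 and 0.30. At both times Atp5e, the smallest of the 5, lay apart from the rest, at 0.20 and -0.48. The peripheral stalk subunits differed, with Atp5f1 (256 codons) at -0.12 and 0.53, Atp5o (213 codons) at -0.10 and 0.53, Atp5h (161 codons) at -0.08 and -0.11, and Atp5j (108 codons) at 0.12 and 0.07. Atp5c1, the central stalk subunit, was the lowest Atp5 gene at 1 day, with 248 against 217 CPM (-0.20), and had 264 against 331 CPM at 1 week (0.33).

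Some small membrane subunits of ATP synthase were higher at 1 day and lower at 1 week. Atp5k, the e subunit found where ATP synthases pair into dimers, had 153 against 186 CPM at 1 day (0.28, 0.25 to 0.31), then 28.3 against 16.2 CPM at 1 week (-0.80, -0.92 to -0.69). Atp5md had 196 against 223 CPM at 1 day (0.19), then 184 against 103 CPM at 1 week (-0.84). Atp5l, the g subunit, was near 0 at 1 day (-0.01) and lower at 1 week (-0.52). The 3 genes of the c ring, which encode the same mature protein, differed from each other. Atp5g1 had 380 against 451 CPM at 1 day (0.25), then 355 against 404 CPM at 1 week (0.19). Atp5g2 had ratios of -0.09 and 0.13, and Atp5g3 had 0.02 and 0.54.

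The 13 protein genes of mitochondrial DNA encode the central subunits of the same complexes. Their summed share was 4.23% in the control and 4.36% in the experimental library at 1 day, a log2 ratio of 0.04, and 1.84% and 2.02% at 1 week, a ratio of 0.13. The limit of 15% mitochondrial UMIs acts on these genes. It removed 2635 barcodes from the 1-day control and 347 from the 1-day experimental library, and 154 and 78 at 1 week. Without it, and with the number of doublets set anew from the larger barcode count, the 1-day ratio was -0.05. The 1-day control then held 24342 barcodes but only 113211425 UMIs, so the 2 changes are not told apart. At 1 week the mean of the CPM per cell gave -0.21, so the direction of both sums depends on the processing. At 1 day 9 of 13 genes were higher, with a median of 0.04 that becomes -0.06 with totals that leave out mitochondrial and ribosomal genes, and at 1 week 10 of 13, with a median of 0.17. With the same lowest UMI count in both libraries the 1-week ratio was 0.28, and over barcodes of 3000 UMIs or more it was 0.21.

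Single mitochondrial genes departed further. mt-Nd6, the only one of the 13 encoded on the light strand, had 32.8 against 59.9 CPM at 1 day, a log2 ratio of 0.87 (0.81 to 0.93), and 107 against 123 CPM at 1 week (0.20). Within clusters it was higher in 19 of 19 at 1 day (median 0.62) and in 4 of 11 at 1 week. An unnamed 1-day cluster led by mt-Nd6 held 161 control and 2388 experimental cells, and its part in the library-wide ratio was not tested. mt-Nd3 had 530 against 564 CPM at 1 day (0.09), then 36.4 against 14.7 CPM at 1 week (-1.31, -1.42 to -1.20). It was lower in 6 of 6 clusters at 1 week. An unnamed 1-week cluster with mt-Nd3 among its leading genes held 450 control and 2 experimental cells, and its part in the library-wide ratio was not tested. mt-Nd4l had ratios of 0.30 and -0.49. It overlaps mt-Nd4 (-0.04 and 0.39) on the same transcript, as mt-Atp8 (-0.02 and 0.04) overlaps mt-Atp6 (0.00 and 0.35). The part of these overlaps in the ratios was not tested. mt-Co1, mt-Co2 and mt-Co3, the core of complex IV, had ratios of 0.10, -0.01 and 0.10 at 1 day and of -0.06, 0.17 and 0.00 at 1 week. mt-Cytb, the cytochrome of complex III, had -0.01 and 0.31. For mt-Nd1, mt-Nd2 and mt-Nd5 the 1-day ratios were 0.04, 0.01 and 0.05, and those at 1 week 0.14, 0.29 and 0.29. As means of the CPM of each cell, only mt-Nd4 (0.04) and mt-Atp6 (0.06) of the 13 were above 0 at 1 week. On that scale mt-Nd1 was at -0.25, mt-Nd2 and mt-Nd5 at -0.12, mt-Cytb at -0.053, mt-Nd6 at -0.37 and mt-Co2 at -0.16, so their direction depends on how cells are weighted.

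Lists of genes that work with the chain were read beside all described genes, of which 6220 of 14026 were higher at 1 day (median -0.05) and 8418 of 14555 at 1 week (0.09). Complex II, succinate dehydrogenase, had 1 of 4 genes higher at 1 day (median -0.07) and 4 of 4 at 1 week (0.45), from Sdhd at 0.83 down to Sdhb at 0.34. The 13 TCA cycle genes had 1 higher at 1 day (median -0.09) and 13 at 1 week (0.43). They ranged at 1 week from Idh3a at 0.64 to Suclg2 at 0.02. All 13 encode at least 338 codons. Within the list, rho with codons was 0.43 at 1 day and -0.52 at 1 week, opposite in sign to that of the members. Assembly factors had 18 of 41 higher at 1 day (-0.07) and 32 at 1 week (0.29), the highest being Timmdc1 (0.70) at 1 day and Taco1 (1.33) at 1 week. The lowest were Ndufaf4 (-0.70) and Cox17 (-0.76). At 1 day 17.1% of the assembly factors were higher and 26.8% lower by 1.2-fold or more, near the 20.4% and 26.7% of all genes. Cyc1, Cycs and Ndufab1, subunits and carriers outside the rule, had medians of 0.02 (-0.09 with those reduced totals) and 0.44. Regulators of mitochondrial biogenesis had 4 of 14 higher at 1 day (-0.22), with 6 lower by 1.2-fold or more (42.9%, beside 26.7% of all genes), and 11 higher at 1 week (0.09, or -0.0036 once mitochondrial and ribosomal genes leave the totals). Mitochondrial ribosomal protein genes had 23 of 78 higher at 1 day (-0.12) and 68 at 1 week (0.33).

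The members' share differed more between clusters of cells than between whole control and experimental libraries. Whole-library sums can hide differences between the libraries within clusters, which are given further on. Cells were clustered within each time point without the members, the mitochondrial genes and the other listed genes. Clusters were named from fixed lists of markers, with rules that also used each cluster's leading genes and its UMI depth. The limits on folds and counts in these rules were set after the data were seen. Krt8-led clusters were named for Krt8 among their leading genes. At 1 week only barcodes of 2000 UMIs or more were clustered. In all 4 libraries the sebaceous gland-like clusters had the highest share of nuclear members. At 1 day it was 3.29% (3.26 to 3.31) in the control and 3.06% (3.03 to 3.09) in the experimental library, where the median over clusters was 1.60% and 1.63%. At 1 week it was 3.70% (90 cells) in the control and 3.35% (68 cells) and 3.49% (106 cells) in the 2 experimental clusters, where the medians were 1.63% and 1.66%. The lowest 1-week shares were those of the granular-like cluster, 1.08% and 0.801%. In the 1-day control the lowest was the fibroblast-like cluster (1.28%), and in the 1-day experimental library an unnamed cluster led by mt-Nd6 and Malat1 (1.37%).

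Gene by gene, 64 of 75 members of 500 or more UMIs had their highest level in a sebaceous gland-like cluster in the 1-day control library, where 10.3% of all 10182 such genes did. The counts were 68 of 75 in the 1-day experimental library (10.3% of all genes), 64 in the 1-week control (9.79%) and 61 in the 1-week experimental library (10.8%). The median member was 2.11 times as high there as the median over the other clusters in the 1-day control, and 1.93, 2.23 and 2.30 times in the other libraries in that order. The 1-week experimental library has 2 sebaceous gland-like clusters, and each gene's higher value was taken there. Ndufa4 was highest in the granular-like cluster in 3 libraries and in an unnamed Lce3-led cluster in the 1-week experimental library. Ndufa11, Ndufa4l2 and Cox6b2 were also highest outside the sebaceous gland-like clusters in all 4 libraries, and Ndufv3, Cox7a2l and Atp5md in 3 each. The mitochondrial genes did the same at 1 day, with 11 of 13 highest there in both libraries and a summed share of 9.53% and 8.06%, but at 1 week with 7 and 4 of 13. Over all clusters of a library, the nuclear and mitochondrial shares went together weakly or hardly at all. Spearman's rho was 0.05 and 0.27 at 1 day and 0.0004 and 0.42 at 1 week. Cytosolic ribosomal protein genes gave 26.6% and 21.04% of UMIs in the sebaceous gland-like cluster at 1 day. At 1 week they gave 23.9% in that of the control and 15.7% and 11.5% in those of the experimental library.

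**Figure D3:**
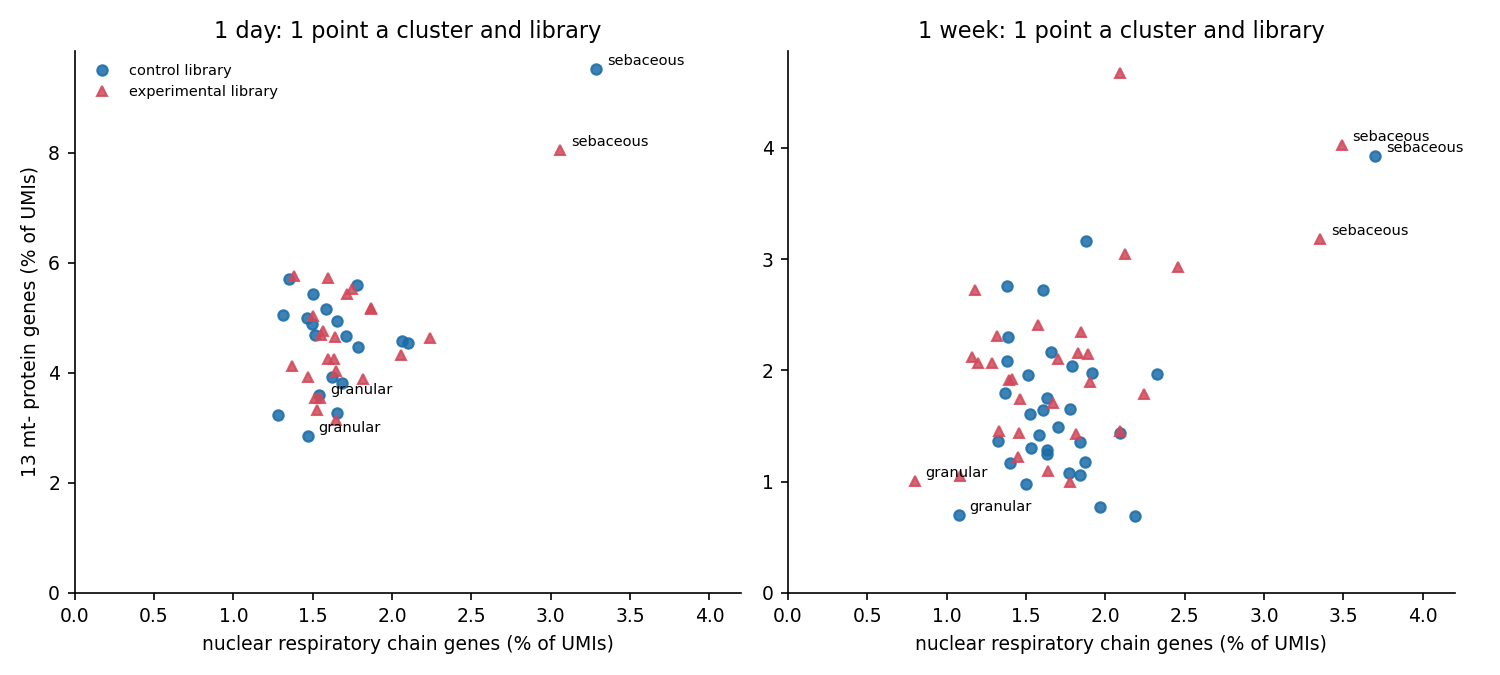
Share of UMIs from the nuclear members (horizontal) and from the 13 mitochondrially encoded protein genes (vertical) in each cluster of at least 20 cells, at 1 day (left) and 1 week (right). Circles are control and triangles experimental libraries. Sebaceous gland-like clusters stand apart at 3.06% to 3.70% on the horizontal axis, and clusters without that name reach at most 2.45%. A cluster of 26 cells (2.45%, Acoxl and Ces1d among the leading genes) and one of 50 cells (2.12%, led by Scd3) share leading genes with the sebaceous gland-like clusters, so the gap depends on the naming. Cycling-like clusters reach 2.32%.

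Within clusters present in both libraries of a time point (at least 20 cells in each), the summed log2 ratio of the nuclear members stayed small at 1 day. It was above 0 in 14 of 20 clusters, with a median of 0.05 and a range of -0.14 to 0.20. The basal-like cluster had -0.10 and the unnamed cluster led by Mt4 and Krt1 -0.14, while the fibroblast-like cluster had 0.20. At 1 week it was below 0 in 13 of 15 clusters, with a median of -0.16 and a range of -0.58 (melanocyte-like) to 0.05, although the sum over whole libraries was higher (0.07). Pooling 1-week clusters of the same name turned the sign for cycling-like cells, to 0.10 (0.09 to 0.12), where the cluster counted had -0.05. The pooled melanocyte-like cells had -0.49, and the basal-like, hair follicle-like and sebaceous gland-like pools -0.06, -0.09 and -0.13. The basal-like pool (-0.11 to -0.0041) set 2024 control cells against only 21 experimental cells, so it says little about basal cells at 1 week. For the mitochondrial genes the summed ratio was above 0 in 11 of 20 compared clusters at 1 day (-0.29 to 0.31). At 1 week it was above 0 in 9 of 15 (-0.39 to 0.60). At 1 week 32 control and 30 experimental clusters held at least 20 cells, but 15 held them in both, so large parts of the libraries enter no such comparison. At 1 day the same holds for clusters of 4494 (Krt8-led), 3253 (suprabasal-like) and 1919 (unnamed) experimental cells. They held 7, 2 and 5 control cells, so the 20 clusters leave out a large part of the 1-day experimental library. The 4494 Krt8-led cells of the 1-day experimental library had 1.82% of UMIs from the members, beside a median of 1.63% over the clusters of that library. The 392 at 1 week had 1.33%, beside a median of 1.66%. Kit and UMI limit for clustering differ between the time points, so the Krt8-led values cannot be set against each other.

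The length contrast was found within nearly every cluster that could be compared. The length classes were chosen after the ratios of these same libraries were seen, and every cluster is a part of those libraries. The cluster counts therefore only describe the contrast and are no independent support. Other sets of genes were not split by length within clusters. The short-minus-long difference was above 0 in 18 of 20 clusters at 1 day (median 0.20, range -0.06 to 0.32), the exceptions being both T cell-like clusters. It was below 0 in 14 of 14 clusters at 1 week (median -0.73, range -1.01 to -0.56). Those 14 include Langerhans or dendritic cell-like (-0.93), fibroblast-like (-0.70), endothelial-like (-0.58) and melanocyte-like clusters (-0.76), none of them keratinocytes. Cox7a2 was lower in 15 of 15 clusters at 1 week and higher in 19 of 20 at 1 day. Cox8a, whose library-wide ratio at 1 week was 0.03, was lower in 15 of 15 clusters there. Uqcrc1 was lower in 15 of 18 clusters at 1 day, from 0.22 in T cell-like cells to -0.77 in the cycling-like cluster.

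**Figure D4:**
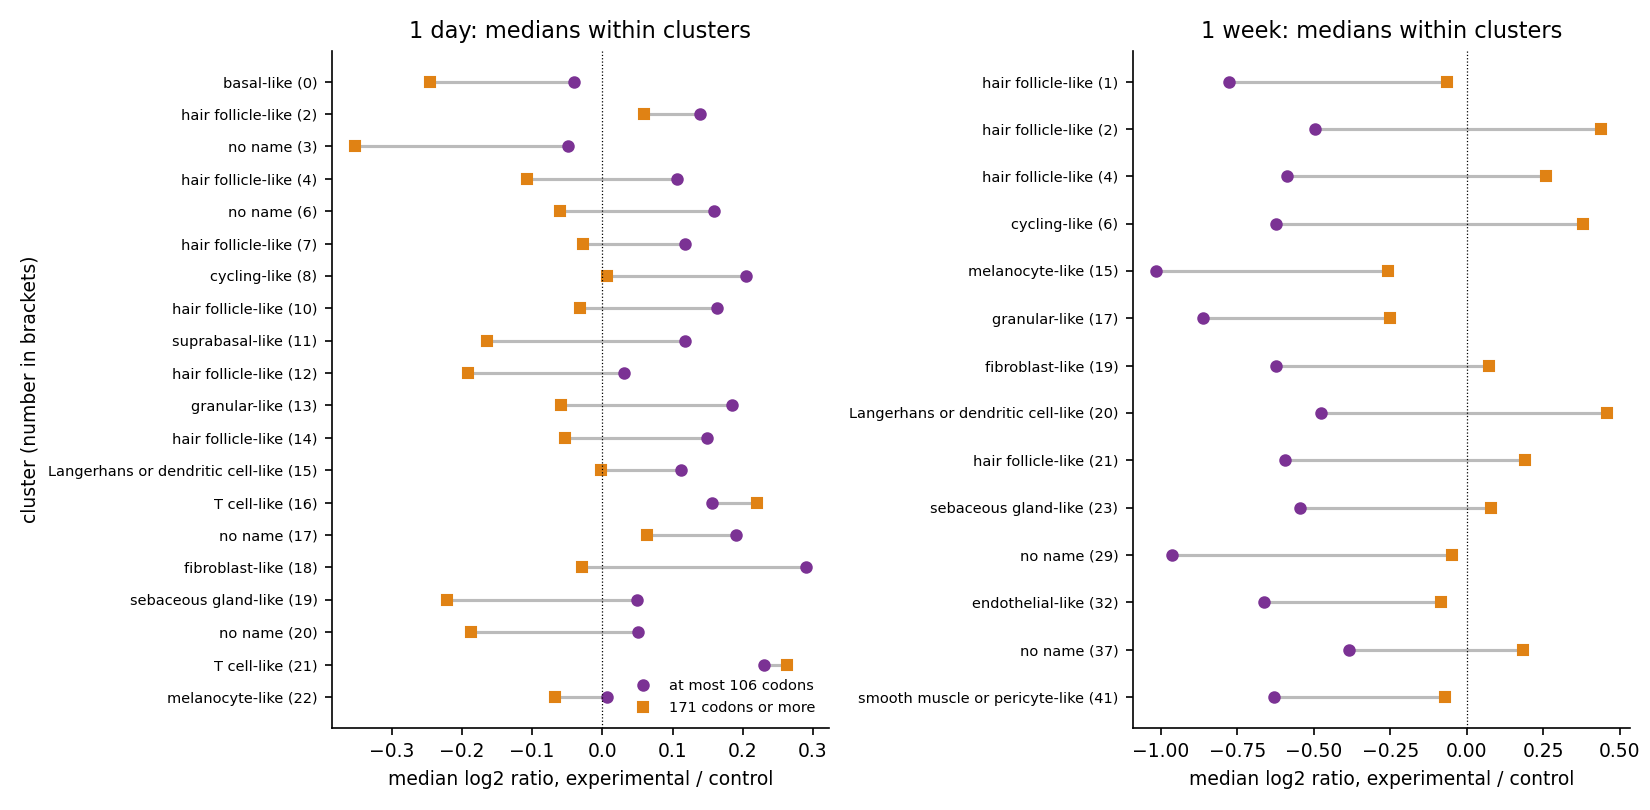
Median log2 ratio, experimental over control, of short members (circles, at most 106 codons) and long members (squares, 171 codons or more) within each cluster compared, at 1 day (left) and 1 week (right). The horizontal scales differ. The circles lie to the right of the squares in 18 of 20 clusters at 1 day and to the left in 14 of 14 at 1 week.

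Ndufa4 and its paralogue Ndufa4l2 were spread over the epidermis in different ways. Ndufa4 was first described as a complex I subunit and later placed in complex IV, and Ndufa4l2 is known as a gene induced by low oxygen. Ndufa4 had 461 CPM (control) against 703 CPM (experimental) at 1 day, a log2 ratio of 0.61 (0.59 to 0.62). After 1 week its values were 288 against 503 CPM, a ratio of 0.80 (0.78 to 0.83). It was the only member past 1.5-fold in the same direction at both times. With totals that leave out mitochondrial and cytosolic ribosomal protein genes (-0.11 for every 1-day ratio), it falls under 1.5-fold at 1 day. Ndufa4l2 had 277 against 276 CPM at 1 day (-0.01), then 316 against 281 CPM at 1 week (-0.17).

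By cluster, Ndufa4 reached 1660 CPM in the granular-like cells of the 1-day control and 1947 CPM in those of the 1-day experimental library. At 1 week the granular-like cluster had 1017 against 983 CPM, and the Lce3-led cluster of the experimental library 1132 CPM. Within clusters its ratio was above 0 in 18 of 20 at 1 day, with a median of 0.27, but in 5 of 13 at 1 week, with a median of -0.07. The 9 granular markers moved with the library-wide Ndufa4 ratio. They gave 0.0587% and 0.196% of UMIs at 1 day and 0.110% and 0.616% at 1 week, with none at 0 in any library. In the basal-like cluster at 1 day the Ndufa4 ratio was -0.10 (-0.22 to 0.02). Whether the makeup of the libraries sets the 1-week ratio was not tested beyond these values.

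Ndufa4l2 had 14.0 against 64.4 CPM in the sebaceous gland-like cells at 1 day, then 25.9 against 11.1 CPM in the 1-week cluster of both libraries (the other, of experimental cells, had 7.20 CPM). In the 1-day Krt8-led cluster it had 468 CPM and in the 1-week one 631 CPM. Within clusters its ratios ran from -0.85 to 2.20 at 1 day and from -1.87 to 2.68 at 1 week, the highest being the sebaceous gland-like cluster at 1 day and a cycling-like cluster at 1 week. That cycling-like cluster held 126 control and 328 experimental cells, while a second one held 136 and 4, with 610 CPM in the control, and over both together the ratio was -0.24 (-0.35 to -0.13). At 1 day 14 clusters were above 0 and 6 below, with a median of 0.29.

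**Figure D5:**
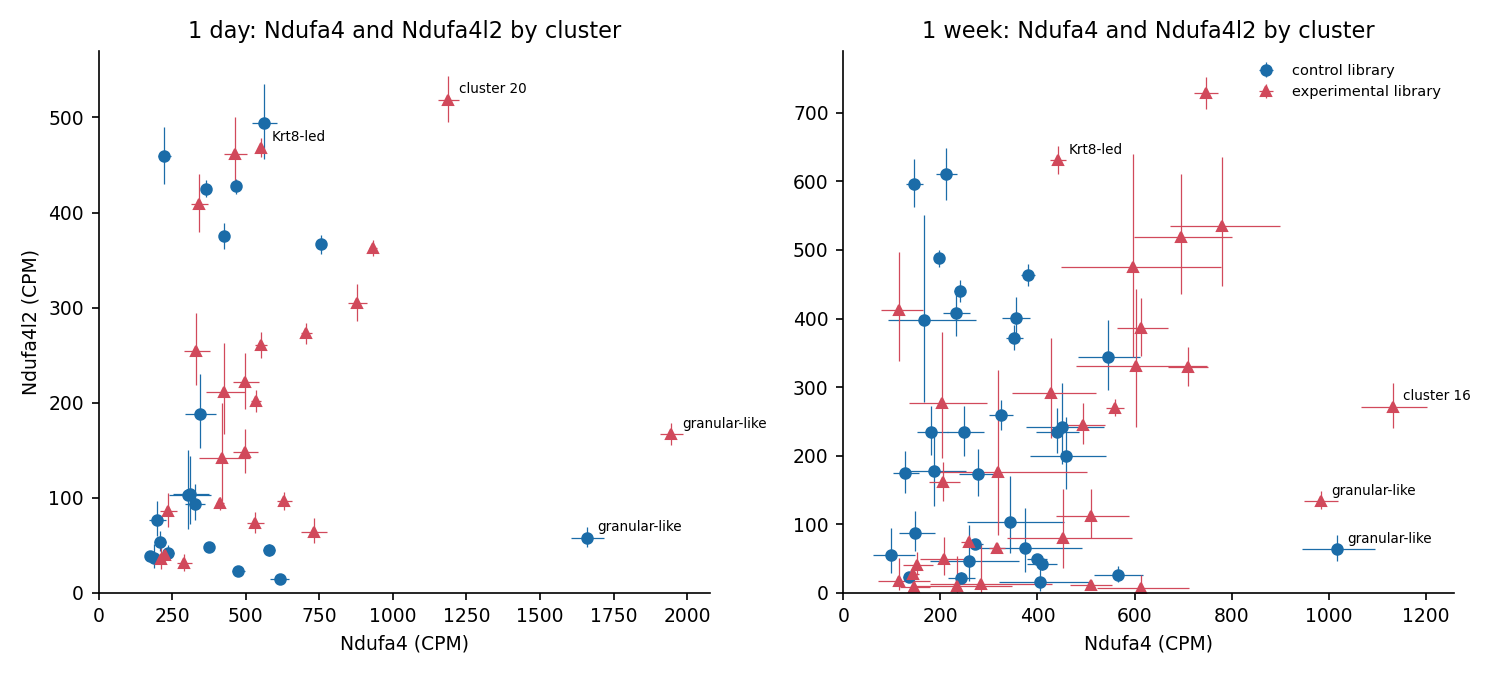
CPM of Ndufa4 (horizontal) and Ndufa4l2 (vertical) in each cluster of at least 20 cells, with exact 95% counting limits, at 1 day (left) and 1 week (right). Circles are control and triangles experimental libraries. Granular-like clusters are high in Ndufa4 (983 to 1947 CPM) and have 58.0 to 167 CPM of Ndufa4l2.

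The 1-day libraries carry 4 hashtag features, 3 of them with 2146449 UMIs or more in each library, and the labels do not say what a hashtag marks. Barcodes were split by their leading hashtag (at least 50% of at least 50 hashtag UMIs) to show the spread within a library. The leading hashtag had a median of 55.2% of a barcode's hashtag UMIs in the control and 50.4% in the experimental library, so the split is weak. These pools are not replicates. The members' share was 1.62% to 1.90% over the 3 control pools and 1.57% to 1.76% over the 3 experimental pools. That spread is wider than the distance between the whole libraries. Of the 75 members, 4 were higher in all experimental pools than in any control pool (17.8% of all genes were) and 7 were lower in all of them (14.9% of all genes). Ndufa4 had 488 to 492 CPM in the control pools and 612 to 752 CPM in the experimental pools. Uqcrc1 had 123 to 152 CPM and 75.8 to 94.9 CPM, and Cox7a2 339 to 374 CPM and 386 to 428 CPM, so the pools did not overlap for these 3. The pools overlapped for Atp5k, at 138 to 174 against 167 to 189 CPM. The short members' share overlapped as well, at 0.621% to 0.705% against 0.638% to 0.726%, and so did that of the long members, at 0.356% to 0.446% against 0.315% to 0.367%. The ratio of the short to the long members' share did not overlap, at 1.58 to 1.76 in the control pools and 1.86 to 2.05 in the experimental pools. The length classes were chosen after the ratios of these same libraries were seen, so the pools only describe that contrast and are no independent support. The same ratio was not computed for other sets of genes.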

How the data were processed

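Deposited values are whole-number UMI counts per gene and barcode, per the file headers, from Cell Ranger 5.0.1 on mm10, with Seurat also named, per the submitters' processing notes. How reads shared with pseudogenes were counted is not given in the sources used here. Lists of barcodes and features, also deposited, are text. A kept barcode had 500 UMIs, 300 genes or more and no more than 15% mitochondrial UMIs, and the highest Scrublet scores (scanpy 1.11.5) were removed at 0.8% per 1000 barcodes. Counts were summed per library and divided by the total, and ratios have exact conditional 95% intervals, checked on simulated data. Clustering used leidenalg 0.10.2 on 2000 variable genes, 30 components and 15 neighbours. Coding lengths came from GENCODE on GRCm38, which held 32158 of 32285 gene identifiers. edgeR 4.0.16 gave only the TMM factors. Members and lists were chosen with earlier results of these data known. Named genes are the highest and lowest of each group and the 5 highest and lowest overall with 500 or more UMIs, members past 1.5-fold at both times, isoform pairs and the 13 mitochondrial genes; further members were named after their values were seen, and 1 item is not reported here. The 1-week clustering limit of 2000 UMIs and the limits used to name clusters were set after the data were seen. With 1 library per group, precision is limited by the missing replicates rather than by depth.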

Additional observations from a re-analysis of the deposited data

Results flagged for a closer look

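Members whose ratios lay past 1.2-fold on opposite sides of their controls at the 2 time points were picked out for a closer look. Atp5k had a log2 ratio of 0.28 at 1 day and -0.80 at 1 week. Cox7a2 had 0.30 at 1 day and -0.37 at 1 week. Totals that leave out mitochondrial and cytosolic ribosomal protein genes move every 1-day ratio by -0.11. With them Atp5k and Cox7a2 both fall under 1.2-fold at 1 day, so the flag depends on the scaling. The difference between the time points was not tested, and the time points also differ in kit (3′ and 5′), so time and kit cannot be told apart.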

How the results depend on the processing

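Each group is 1 library, so leaving out a replicate could not be done. No paired analysis was possible because the labels give no replicate numbers and each group has 1 library. The length contrast kept its direction in every alternative run, at 0.18 to 0.24 at 1 day and -0.88 to -0.81 at 1 week. Runs that only change the scaling cannot move it, and the other runs draw on the same libraries, so they are no independent support. Sums and medians lie near 0 and their sign depends on the setting; the cause was not tested. Reduced totals leave out mitochondrial and cytosolic ribosomal protein genes, and per cell means the mean of the CPM of each cell. With no mitochondrial limit, the number of doublets removed was also set anew from the larger barcode count. For 1 day the summed log2 ratio of the nuclear members (0.01 as reported) was 0.036 with the TMM factor, -0.092 with the reduced totals, 0.028 with no mitochondrial limit, 0.0090 with the same lowest UMI count in both libraries, 0.051 per cell and 0.027 over all listed barcodes. For 1 day the summed log2 ratio of the mitochondrial genes (0.04 as reported) was 0.065 with the TMM factor, -0.063 with the reduced totals, -0.047 with no mitochondrial limit, 0.017 with no doublet removal, 0.056 with the same lowest UMI count in both libraries, 0.087 over barcodes of 3000 UMIs or more, -0.063 per cell and -0.081 over all listed barcodes. For 1 day the median of the nuclear members (-0.01 as reported) was -0.12 with the reduced totals and 0.024 per cell. For 1 week the summed log2 ratio of the nuclear members (0.07 as reported) was -0.018 with the TMM factor, -0.023 with the reduced totals, 0.055 with the same lowest UMI count in both libraries, 0.028 over barcodes of 3000 UMIs or more, 0.14 per cell, 0.046 in keratinocyte-like clusters and 0.032 over barcodes of 2000 UMIs or more. For 1 week the median of the nuclear members (0.02 as reported) was -0.069 with the TMM factor, -0.075 with the reduced totals, -0.045 over barcodes of 3000 UMIs or more, 0.12 per cell, -0.032 in keratinocyte-like clusters and -0.035 over barcodes of 2000 UMIs or more. For 1 week the summed log2 ratio of the mitochondrial genes (0.13 as reported) was 0.047 with the TMM factor, 0.041 with the reduced totals, 0.12 with no doublet removal, 0.28 with the same lowest UMI count in both libraries, 0.21 over barcodes of 3000 UMIs or more, -0.21 per cell, 0.16 in keratinocyte-like clusters and 0.22 over barcodes of 2000 UMIs or more. With the reduced totals 19 members were higher at 1 day, where 31 are reported. Of 30 named genes at 1 day and 36 at 1 week, 12 each time changed sign in at least 1 setting. Of those past 1.2-fold, 3 changed sign in 1 setting, per cell at 1 week: mt-Nd2 (-0.12), mt-Nd5 (-0.12) and mt-Cytb (-0.053). The settings with all listed barcodes and with 2000 UMIs or more, and the length contrast itself, were chosen after seeing the data.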
